A study of Mus musculus with 20 samples.

Results

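RNA of 10 genes of the JAK-STAT pathway and its feedback arm was quantified in dCAMs, the CNS-associated macrophages that live in the cranial dura mater. The genes were chosen by symbol from the count table: the inhibitors Socs1, Socs3 and Cish, the transcription factors Stat3, Stat4, Stat5a and Stat6, the kinases Jak2 and Jak3, and Pim1. They are 10 of the 33243 genes listed, and 10 of 10 had enough counts to be among the 16632 genes tested. The mice carried Ccr2creERT2/+ and R26tdT/tdT, so that tamoxifen switched on the red fluorescent protein tdTomato (tdT) in cells expressing Ccr2 at that time, and the label therefore follows cells of a Ccr2-expressing origin and not a macrophage marker. In every mouse, controls included, macrophages had been depleted with the CSF1R inhibitor BLZ945 (200 mg/kg on 7 days), tamoxifen (2 mg/day) followed on the final depletion day and 2 and 4 days after it, and the dura was taken 8 weeks after depletion. LPS mice received bacterial lipopolysaccharide at 2.5 mg/kg 12 hours before the harvest and CTL mice received PBS. Each of the 10 mice gave a tdT+ and a tdT- library of sorted CD45int CD11b+ CD206int-high cells, which makes 4 groups of 5 libraries: tdT- CTL, tdT- LPS, tdT+ CTL and tdT+ LPS. The labels give no age, and mice with titles starting with F and with M are found in both treatments. CTL mice bear the numbers 174, 175, 177, 178 and 179 and LPS mice 54, 56, 59, 60 and 61. The comparisons ask how dCAMs with and without the Ccr2-driven label respond to endotoxin.

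In this pathway a cytokine brings its receptor chains together, the Janus kinases (JAK) bound to those chains become active, and STAT proteins are phosphorylated, enter the nucleus and switch on target genes. Among those targets are the SOCS proteins and CIS (Cish), which bind receptors or kinases and damp the signal, and the kinase PIM1. In macrophages the pathway carries responses to IL-6, IL-10, interferons, IL-4 and colony-stimulating factors, many of which are made after LPS. RNA levels were measured here, and phosphorylation, which switches STAT proteins on, was not.

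Levels are CPM, that is the counts of a gene per 1000000 counts of its library after TMM scaling, as mean ± SD. A gene was called changed when edgeR's quasi-likelihood test, fitted over all genes and libraries, gave an adjusted p (Benjamini-Hochberg) under 0.05 with a log2 fold change above 1 or below -1. The ± after a log2 fold change is its SE. A count of 3 or fewer in a library was taken as its floor. Where a value covers 5 libraries, the mice are the replicates. Since bulk RNA was read, fewer cells of a type and less RNA per cell cannot be told apart.

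Library totals ran from 6017650 to 12208203 counts in CTL mice and from 12073566 to 18925908 counts in LPS mice. Depth thus largely followed the treatment, and its part in the LPS effects was not tested. The tdT- CTL libraries held the fewest genes with at least 10 counts (6671 to 9365, against 10024 to 11987 elsewhere), and 1.72% to 14.9% of 5823 well expressed genes were at the floor in them, against at most 0.635% in the other groups. In the tdT- CTL library of mouse 179, 5 of the 10 genes studied (Socs1, Cish, Stat4, Stat5a and Jak2) were at the floor. Of 8 macrophage markers, including Csf1r, Adgre1 and Mrc1 (which encodes the CD206 used in the gate), 8 were present, and their summed level was at least 10280 CPM in every library. That sum was not even over the groups. It ran from 10871 to 21320 CPM in tdT- CTL and from 10280 to 12733 in tdT- LPS. In tdT+ CTL it was 24060 to 26982 CPM, above the 11707 to 16305 CPM of tdT+ LPS. The summed level of 5 fibroblast markers ran from 10.9 to 3993 CPM over the tdT- CTL libraries (highest in mouse 179) and was at most 336 CPM outside that group. That of 6 dendritic cell markers was 618 to 3329 CPM in tdT- CTL, 262 to 638 in tdT- LPS, 51.2 to 77.1 in tdT+ CTL and 11.4 to 52.5 in tdT+ LPS, with Xcr1 at the floor everywhere. These 6 genes did not move as one. From tdT- CTL to tdT- LPS dCAMs the mean of Cd209a went from 1228 to 26.8 CPM, and that of Ccr7 from 46.3 to 401 CPM. Flt3 and Zbtb46 also averaged less after LPS there, and Clec9a was near 0 in both. The part of these markers in the results below was not tested.

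To show the DNA next to the genes that were called, the stretch upstream of the transcription start is given for Socs3, Stat3 and Jak3 (RefSeq starts on GRCm38.p6, reading 5′ to 3′ on the strand of the gene, cut at the first base that lies in an annotated exon of the gene). They are chr11:117969452-117969616 on the minus strand (bases -250 to -86 from the start), chr11:100939541-100939790 on the minus strand (-250 to -1) and chr8:71676133-71676295 on the plus strand (-250 to -88). The Socs3 stretch is upstream of the RefSeq start but inside the GENCODE gene span, which reaches base 117970047, in an intron of a longer annotated transcript. Capitals mark a match to TTCNNNGAA, the core of the element that STAT dimers bind, which reads the same on both strands.

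Socs3: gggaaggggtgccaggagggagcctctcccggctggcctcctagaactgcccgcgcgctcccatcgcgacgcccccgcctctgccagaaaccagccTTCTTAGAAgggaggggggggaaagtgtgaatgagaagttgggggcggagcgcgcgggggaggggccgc

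Stat3: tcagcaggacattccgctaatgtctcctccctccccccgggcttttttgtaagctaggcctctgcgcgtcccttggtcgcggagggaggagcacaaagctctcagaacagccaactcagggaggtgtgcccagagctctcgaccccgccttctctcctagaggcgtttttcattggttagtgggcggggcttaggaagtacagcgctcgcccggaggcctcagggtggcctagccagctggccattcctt

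Jak3: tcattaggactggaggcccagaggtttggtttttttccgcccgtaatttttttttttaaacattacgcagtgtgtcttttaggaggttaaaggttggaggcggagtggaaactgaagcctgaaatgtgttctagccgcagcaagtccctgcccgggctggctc

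The match in front of Socs3 is TTCTTAGAA and begins 154 bases upstream of the start. Over the 250 bases before the first listed start, 1 of the 10 genes holds the motif, as do 5.95% of the promoters of 12062 genes tested and 7.18% of all 27025 promoters listed. A match describes these letters and not a bound site, and its absence says only that the letters are not in this window.

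After LPS, Socs3 and Stat3 rose in both populations, and Jak3 rose in tdT- dCAMs, where it was almost silent in CTL mice. In tdT- dCAMs 3 of the 10 genes were called, all higher, where 11.5% of all genes tested were called and 7.2% were called higher. In tdT+ dCAMs 2 were called, both higher, against 5.89% of all genes called and 3.37% called higher. The median log2 fold change of the 10 genes was 1.47 in tdT- and 0.59 in tdT+ dCAMs, beside 0.02 and 0.01 over all genes tested. The plot of fold changes shows the genes with their errors in both populations.

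**Figure D1:**
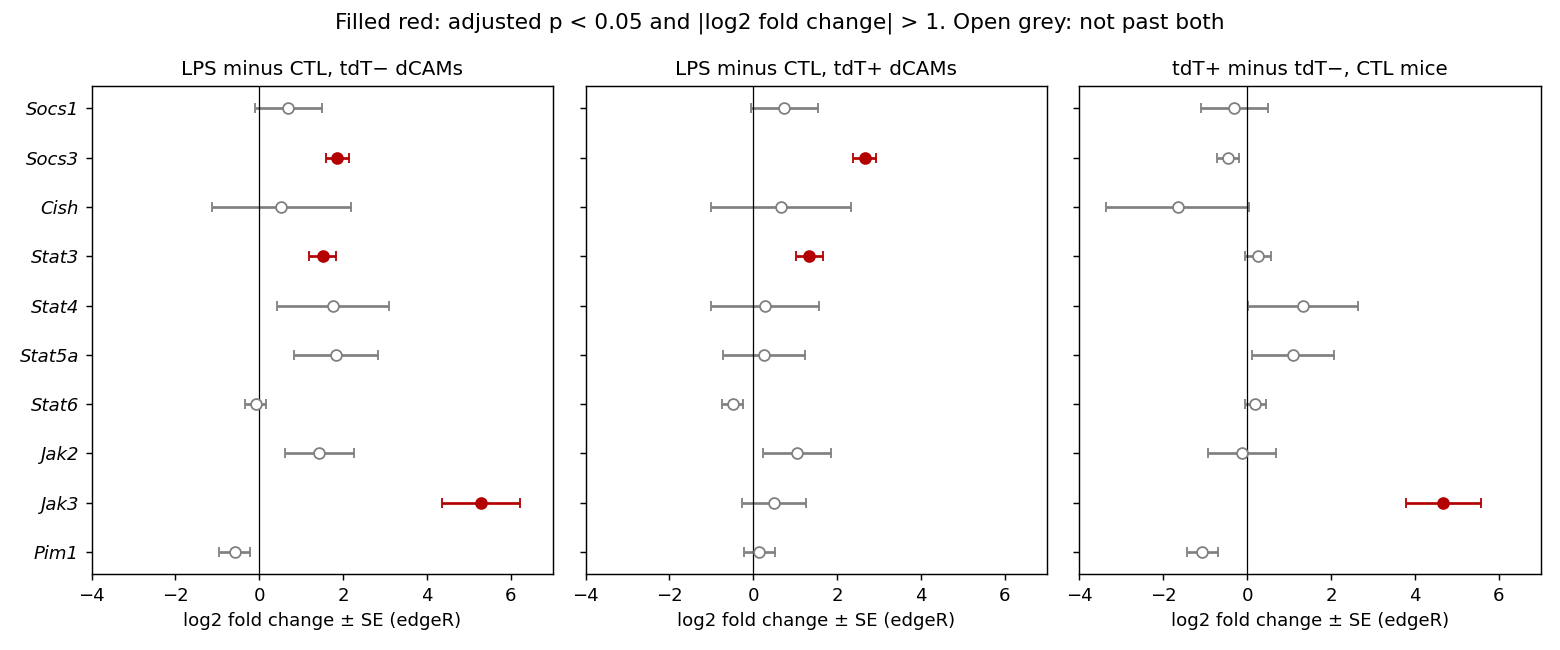
Log2 fold changes ± SE (x axis, edgeR) of the 10 genes (y axis) for LPS against CTL in tdT- dCAMs (left), LPS against CTL in tdT+ dCAMs (middle) and tdT+ against tdT- dCAMs of CTL mice (right), with filled points past the threshold. Socs3 and Stat3 are filled in both LPS panels, and Jak3 is filled on the left (5.29) and on the right (4.68) and open in the middle (0.50).

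Socs3, whose product blocks signaling through the IL-6 receptor chain gp130, was the most abundant of the 10 genes. In tdT- CTL dCAMs it stood at 460, 252, 268, 314 and 603 CPM in mice 174, 175, 177, 178 and 179, and in tdT- LPS dCAMs at 1211, 1354, 1482, 1184 and 1656 CPM in mice 54, 56, 59, 60 and 61. In tdT+ CTL dCAMs it stood at 172, 200.5, 256, 496 and 258 CPM, and in tdT+ LPS dCAMs at 1819, 1826, 1769.6, 1298 and 2047 CPM, in the same order of mice. Every LPS library was above every CTL library in both populations. The mean rose from 379 ± 149 to 1377 ± 196 CPM in tdT- dCAMs (n = 5 each), a log2 fold change of 1.86 ± 0.27 (edgeR, adjusted p = 6.99e-05), which is 3.63-fold. In tdT+ dCAMs it rose from 276 ± 128 to 1752 ± 275 CPM, a log2 fold change of 2.66 ± 0.28 (edgeR, adjusted p = 1.06e-06), or 6.34-fold. The LPS effects differed by 0.80 ± 0.37 on the log2 scale, which did not pass the correction (edgeR, adjusted p = 0.350). Within the LPS mice Socs3 was higher in the tdT+ library of 5 of 5 mice, by a log2 fold change of 0.35 ± 0.26 (edgeR, adjusted p = 1.0).

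Stat3, the transcription factor downstream of IL-6 and IL-10 receptors, rose less. Its levels in tdT- CTL dCAMs were uneven, at 71.2, 304, 131, 73.6 and 262 CPM, and those in tdT- LPS dCAMs were 506, 455.5, 388, 494 and 558 CPM. In tdT+ CTL dCAMs they were 192, 157, 263, 203 and 194 CPM, and in tdT+ LPS dCAMs 531, 472.5, 453, 436 and 655 CPM. No CTL library reached the LPS range in either population. The log2 fold change was 1.51 ± 0.33 in tdT- dCAMs (edgeR, adjusted p = 0.00327; 2.85-fold) and 1.34 ± 0.32 in tdT+ dCAMs (adjusted p = 0.0120; 2.53-fold), and the difference of the effects was -0.18 ± 0.45 (adjusted p = 1.0). In tdT+ dCAMs the call was lost without mouse 54 (adjusted p = 0.0534) or mouse 61 (0.0514), and in tdT- dCAMs it was lost when only the libraries of that comparison were fitted (0.0533), with log2 fold changes of 1.32, 1.23 and 1.51. Stat3 lies on the minus strand of chromosome 11 (100885098 to 100939540, GRCm38) and its end overlaps that of Stat5a on the plus strand (100859351 to 100885169), and whether the counting used strand is not given in the sources used here.

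Jak3, the kinase paired with the common gamma chain of cytokine receptors (Il2rg), had a pattern of its own. In tdT- CTL dCAMs it had 0, 18, 0, 15 and 34 counts, or 0, 1.98, 0, 1.69 and 4.45 CPM, in mice 174, 175, 177, 178 and 179. The tdT+ libraries of the same mice held 69.8, 61.8, 31.0, 35.1 and 12.0 CPM, so that the tdT+ library was higher in 5 of 5 mice and the groups did not overlap. The share of all genes with the same sign in every CTL mouse, or without overlap there, is not given here. After LPS the levels were 72.7, 71.2, 67.0, 54.0 and 55.1 CPM in the tdT- libraries and 57.2, 65.7, 50.0, 57.5 and 66.8 CPM in the tdT+ libraries, and these groups overlapped. In CTL mice the mean was thus 1.62 ± 1.83 CPM without and 41.9 ± 23.6 CPM with the tdT label, a log2 fold change of 4.68 ± 0.89 (edgeR, adjusted p = 0.00332).

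With LPS, Jak3 rose in tdT- dCAMs to 64.0 ± 8.86 CPM, a log2 fold change of 5.29 ± 0.92 (edgeR, adjusted p = 0.000458). In tdT+ dCAMs it was 59.4 ± 6.90 CPM, a log2 fold change of 0.50 ± 0.76 (adjusted p = 0.843). The difference of the LPS effects, tdT+ minus tdT-, was -4.78 ± 1.14 (edgeR, adjusted p = 0.0379), and Jak3 was the only one of the 10 genes called for this difference, where 1.26% of all genes were. That call was lost with mouse as a fixed replicate block (-5.68, adjusted p = 0.145) and without mouse 178 (0.0536) or any of the LPS mice 54, 56, 59, 60 and 61 (0.124 to 0.150), while the difference stayed between -4.71 and -4.88 in those 6 fits. The call between populations in CTL mice was lost when only those 10 libraries were fitted (4.68, adjusted p = 0.298).

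Completeness and Jak3 level of the tdT- CTL libraries are set side by side here, and the part of the first in the second was not tested. Of the well expressed genes 1.72% and 3.40% were at the floor in mice 175 and 178 (Jak3 at 1.98 and 1.69 CPM). In mice 177 and 174 the share was 7.04% and 14.8% (Jak3 at 0 in both). Mouse 179, with 14.9%, had the highest Jak3 of the group (4.45 CPM). With the tdT- libraries of mice 174 and 179 left out, a choice made after seeing the data, the log2 fold change was 5.08 between the populations of CTL mice (edgeR, adjusted p = 0.000526), 5.67 for LPS in tdT- dCAMs (7.35e-05) and -5.19 for the difference of the LPS effects (0.00253). The libraries left out held the highest Jak3 of the group (mouse 179) and a Jak3 of 0 (mouse 174). That fit therefore cannot tell the part of completeness from that of the Jak3 values removed. Markers of T and NK cells, in which Jak3 is also known, were summed as well, and of 8 markers listed 7 were in the table. Their sum was 0 to 0.491 CPM in tdT- CTL, 5.03 to 16.8 in tdT+ CTL, 0.0614 to 28.9 in tdT- LPS and 4.69 to 14.0 in tdT+ LPS libraries. The tdT- LPS sums thus ran from within the tdT- CTL range to above it, and the sums of both tdT+ groups lay above it. Of these 7 markers edgeR called 2, Nkg7 and Il2rb, with LPS in tdT- dCAMs and the same 2 between the populations of CTL mice, and 0 for the difference of the LPS effects, where 4 had an unadjusted p under 0.05 and DESeq2 called 1. For LPS in tdT+ dCAMs edgeR, DESeq2 and both voom fits called 0, and 0 had an unadjusted p under 0.05. Cd3d, Nkg7 and Ncr1 were at 0 in the tdT- CTL group. Ncr1 was also at 0 in both tdT+ groups, and Klrb1c averaged 0.119 CPM in tdT- CTL and 0.0419 CPM in tdT+ CTL dCAMs. The part of these cells in the Jak3 values was not tested. In the annotation, Jak3 (chromosome 8, 71676296 to 71690575, plus strand) overlaps Insl3 on the same strand.

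**Figure D2:**
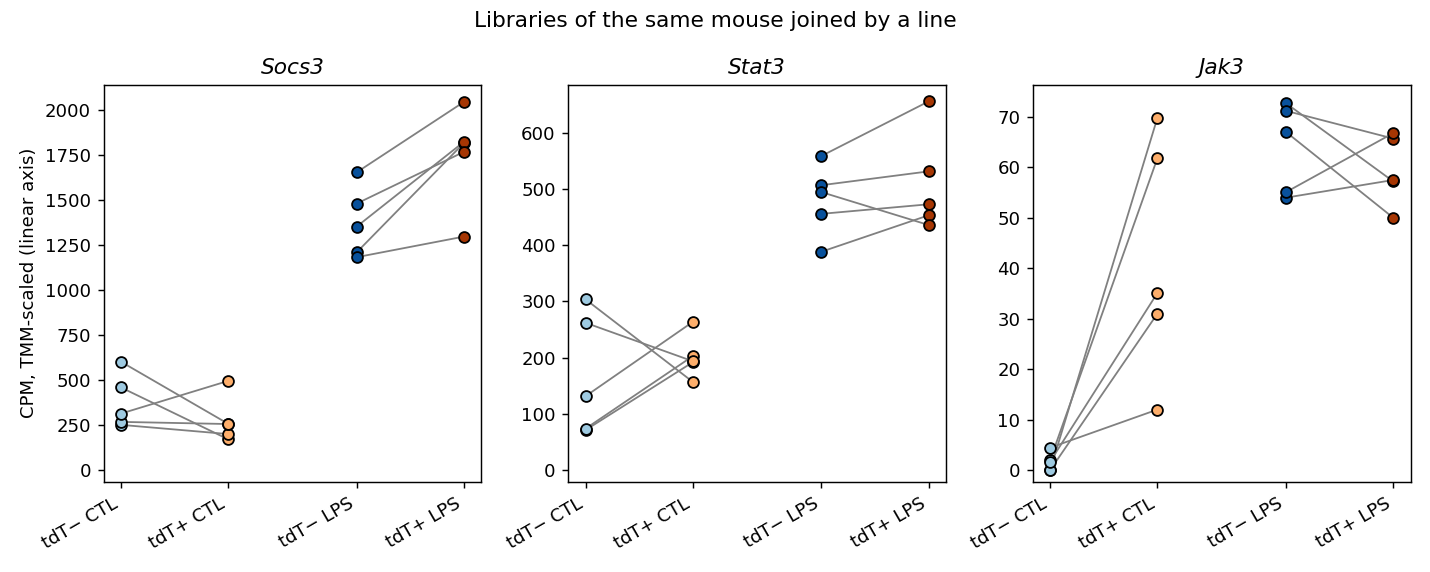
CPM (y axis, linear) of Socs3, Stat3 and Jak3 in the tdT- and tdT+ libraries of CTL and LPS mice (x axis), with a line joining the libraries of a mouse. Jak3 goes from at most 4.45 CPM in tdT- to at least 12.0 CPM in tdT+ dCAMs in each CTL mouse, whereas the 10 LPS libraries lie between 50.0 and 72.7 CPM.

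Of the other SOCS genes, neither Socs1 nor Cish was called. Socs1, an inhibitor of interferon signaling, was 22.7 ± 19.1 CPM in tdT- CTL and 36.5 ± 13.6 in tdT- LPS dCAMs, and 18.3 ± 2.92 in tdT+ CTL and 30.5 ± 10 in tdT+ LPS dCAMs. In tdT+ dCAMs the 5 LPS libraries (21.6 to 47.2 CPM) lay just above the 5 CTL libraries (14.4 to 21.3 CPM). The log2 fold changes were 0.69 ± 0.80 and 0.74 ± 0.80 (edgeR, adjusted p = 0.605 and 0.728). Cish, an inhibitor best known as a STAT5 target, was near the floor, with 0 counts in 2 tdT- CTL, 3 tdT+ CTL and 1 tdT+ LPS library. After LPS it was 5.16 to 10.9 CPM in tdT- dCAMs and 0 to 4.31 CPM in tdT+ dCAMs, lower in the tdT+ library of 5 of 5 mice, with a log2 fold change of -1.52 ± 1.69 (edgeR, adjusted p = 1.0).

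The STAT genes other than Stat3 were not called with LPS. Stat6, which carries IL-4 and IL-13 signals, was among the most abundant and the most even: 250.0 to 280 CPM in tdT+ CTL, 155 to 232.5 in tdT+ LPS, 118 to 324 in tdT- CTL and 183 to 305 in tdT- LPS dCAMs. In tdT+ dCAMs every LPS library was below every CTL library, with a log2 fold change of -0.49 ± 0.25 (edgeR, adjusted p = 0.280). In tdT- dCAMs the log2 fold change was -0.08 ± 0.25 (adjusted p = 0.873).

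Stat5a, which acts downstream of GM-CSF, was 0 to 35.7 CPM in tdT- CTL and 23.2 to 44.1 CPM in tdT- LPS dCAMs. A single CTL library, that of mouse 175 (35.7 CPM), reached the LPS range, the next being 7.24 CPM. The log2 fold change was 1.83 ± 1.0 (edgeR, adjusted p = 0.224), and without mouse 175 it was 3.82 (adjusted p = 0.0130). In tdT+ dCAMs it was 0.26 ± 0.97 (adjusted p = 0.973). Stat5a overlaps Stat3 and has a close paralog, Stat5b, so its counts are less certain.

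Stat4, which is known from IL-12 signaling in lymphocytes, was the lowest STAT in each group per length, at 3.04 ± 5.21, 10.3 ± 6.61, 7.67 ± 5.42 and 9.35 ± 5.36 CPM in tdT- CTL, tdT- LPS, tdT+ CTL and tdT+ LPS dCAMs. It had 0 counts in 2 tdT- CTL and 1 tdT+ CTL library. The log2 fold changes with LPS were 1.76 ± 1.33 and 0.29 ± 1.29 (edgeR, adjusted p = 0.392 and 0.982). With single mice left out the first ran from 1.37 to 3.90, the highest value being that without mouse 175.

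Jak2, the kinase used by receptors for GM-CSF, interferon-gamma and the gp130 family, had a wide spread in tdT- CTL dCAMs, with 229, 69.1, 16.8, 8.69 and 0.262 CPM in mice 174, 175, 177, 178 and 179. In tdT- LPS dCAMs it was 201, 128, 171, 134 and 235.5 CPM in mice 54, 56, 59, 60 and 61. The library of mouse 174 alone lay within the LPS range. The log2 fold change was 1.43 ± 0.82 (edgeR, adjusted p = 0.247), and without mouse 174 it was 2.85 (adjusted p = 0.0199). In tdT+ dCAMs the levels were 38.9 to 79.2 CPM in CTL and 89.3 to 168.5 CPM in LPS mice without overlap, and the log2 fold change was 1.04 ± 0.81 (adjusted p = 0.570); fitted on the libraries of that comparison alone, it passed (1.04, adjusted p = 0.0107).

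With mouse as a replicate block through an estimated correlation (limma-voom), 6 genes were called in tdT- dCAMs: Socs3, Stat3 and Jak3, and in addition Stat4 (3.82, adjusted p = 0.0485), Stat5a (4.05, 0.00410) and Jak2 (3.51, 0.00713). In tdT+ dCAMs Socs3 and Stat3 were called in that fit.

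Pim1, a serine/threonine kinase whose gene is a known STAT target, was not called with LPS in either population (log2 fold changes -0.58 ± 0.37 and 0.15 ± 0.37; edgeR, adjusted p = 0.300 and 0.940). It was lower in the tdT+ than in the tdT- library of 5 of 5 CTL mice, at 25.2, 22.9, 57.4, 63.8 and 49.5 CPM against 81.3, 61.6, 82.4, 146.5 and 88.4 CPM in mice 174, 175, 177, 178 and 179. Only the tdT+ library of mouse 178 reached above the lowest tdT- library. The share of all genes with the same sign in every CTL mouse is not given here. The log2 fold change was -1.07 ± 0.37, which missed the threshold in edgeR (adjusted p = 0.101) and passed it in DESeq2 (-1.03, adjusted p = 0.0141).

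**Figure D3:**
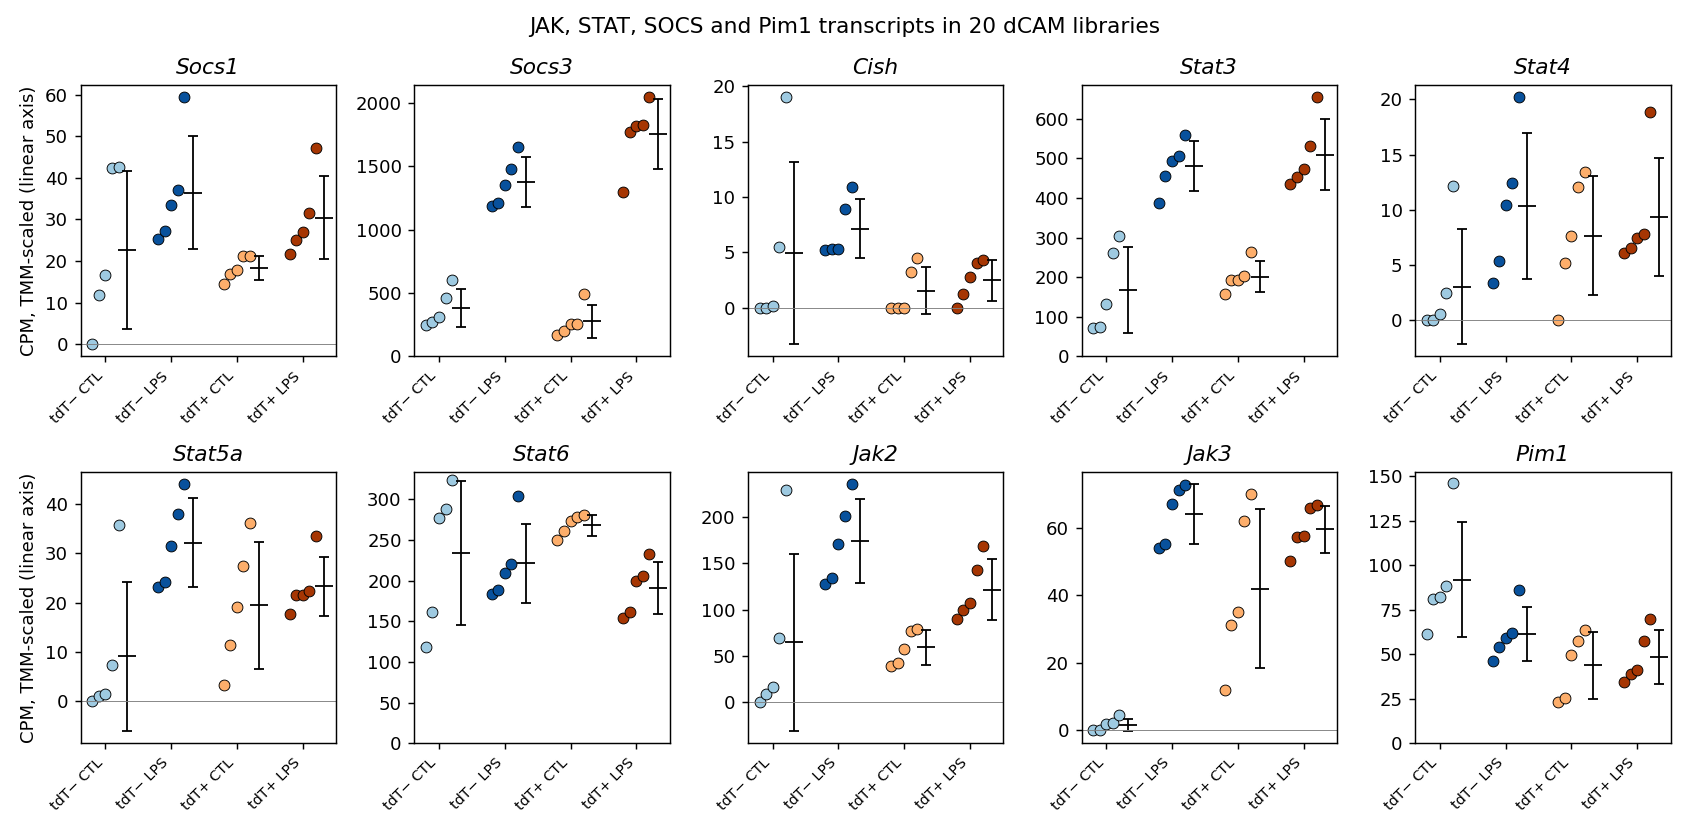
CPM (y axes, linear, a separate scale per gene) of the 10 genes in the 5 libraries of each group (points; the horizontal mark and bar give mean ± SD). Socs3 and Stat3 show LPS libraries clear of the CTL libraries in both populations, Jak3 is near 0 in tdT- CTL dCAMs alone, and Jak2, Stat5a, Stat4 and Cish have single tdT- CTL libraries far above the others.

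Counting only whether libraries overlap, 3 of the 10 genes (Socs3, Stat3 and Jak3) separated LPS from CTL in tdT- dCAMs, where 12.6% of all genes tested did. In tdT+ dCAMs 5 did (Socs1, Socs3, Stat3, Stat6 and Jak2), against 17.8% of all genes. Jak3 was the single gene called between tdT+ and tdT- dCAMs of CTL mice, where 4.28% of genes tested were called. In LPS mice 0 of the 10 genes were called between the populations by edgeR, by DESeq2 or by either voom fit, 0 had an unadjusted p under 0.05, and 0.0301% of all genes were called. In 5 of 5 LPS mice Socs3 was higher in the tdT+ library, and Cish, Stat5a, Stat6 and Jak2 were lower. The last 3 had log2 fold changes of -0.47 ± 0.97, -0.21 ± 0.25 and -0.52 ± 0.81 (edgeR, adjusted p = 1.0 each). The share of all genes with 1 sign in every LPS mouse is not given here, so these signs are not read as a population difference. The median log2 difference between tdT+ and tdT- dCAMs was 0.03 over the 10 genes in CTL mice and -0.24 in LPS mice, beside -0.01 and 0.00 over all genes.

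Per kilobase of exon, which allows genes to be compared, Socs3 stood first in each of the 4 groups, at 131 ± 51.7, 476 ± 67.9, 95.6 ± 44.3 and 606 ± 95.3 CPM per kb in tdT- CTL, tdT- LPS, tdT+ CTL and tdT+ LPS dCAMs. It did not overlap the next gene, except in tdT+ CTL dCAMs, where it overlapped Stat6 (61.0 ± 2.92 CPM per kb). Stat6 came next in CTL dCAMs of both populations. In LPS dCAMs Stat3 and Stat6 took the next places and overlapped each other, at 50.4 ± 6.65 and 50.2 ± 11.2 CPM per kb in tdT- and 53.5 ± 9.35 and 43.4 ± 7.34 in tdT+ dCAMs. Stat5a, Stat4 and Cish were at most 4.51 CPM per kb in every group, and Jak3 moved from the last place in tdT- CTL (0.303 ± 0.342) to 12.0 ± 1.66 CPM per kb in tdT- LPS dCAMs.

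The genes whose log2 CPM followed Socs3 most closely over the 20 libraries, out of 5816 genes whose log2 CPM averaged 4 or more, were Prdx6 (Pearson r = 0.959), an antioxidant enzyme, Mt2 (0.954), a metallothionein, and Saa3 (0.95), an acute-phase protein. The points share the treatment groups, the mice and the depth, and the LPS and CTL libraries form separate clusters, so that these values describe likeness and are given without a p. Saa3 reached 34915 CPM in tdT- LPS and 29409 CPM in tdT+ LPS dCAMs, against 1.25 and 0.161 CPM in CTL. Of 7 neutrophil markers edgeR called 2 with LPS in each population, S100a8 (8.07 to 291 CPM in tdT- and 2.09 to 309 CPM in tdT+ dCAMs) and Mmp8 (0.0491 to 98.0 and 0.0802 to 103 CPM). S100a9 averaged less after LPS (3.61 against 0.917 CPM in tdT- and 4.33 against 0.236 CPM in tdT+ dCAMs). So did Camp in tdT- and Retnlg in tdT+ dCAMs. In the other population each averaged more after LPS, Retnlg from 54 to 216 CPM in tdT- and Camp from 0.0478 to 2.23 CPM in tdT+ dCAMs. Cxcr2 went from 0.0226 to 2.48 CPM in tdT- dCAMs. None of these was called. The sum over the 7 genes was 1.54 to 179 CPM in tdT- CTL, 262 to 823 in tdT- LPS, 0.419 to 31.1 in tdT+ CTL and 244 to 571 in tdT+ LPS libraries and Ly6g, their defining surface marker, had a group mean of at most 0.309 CPM. Their part in the Socs3 rise was not tested.

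The rest of the pathway was read from the same fit with a list of 73 genes, of which 71 were tested. In tdT- dCAMs 18 were called higher and 4 lower with LPS, and in tdT+ dCAMs 16 higher and 6 lower, with median log2 fold changes of 0.39 and 0.10. Of all genes tested 11.5% and 5.89% were called. With only the libraries of each comparison fitted, 12 were called in tdT- and 34 in tdT+ dCAMs. With sample quality weights 36 were called in tdT+ dCAMs. Among receptor chains, 9 of 22 were called higher and 1 lower in tdT- dCAMs, and 6 higher and 3 lower in tdT+ dCAMs. Il4ra, the IL-4 receptor chain that signals through STAT6, rose from 182 ± 130 to 1237 ± 38.9 CPM in tdT- dCAMs and from 338 ± 97.5 to 1513 ± 89.5 CPM in tdT+ dCAMs (log2 fold changes 2.77 ± 0.35 and 2.16 ± 0.35; edgeR, adjusted p = 1.72e-05 and 0.000224). Il6st, which encodes gp130, rose from 78.9 ± 52.3 to 303.5 ± 60.1 CPM and from 62.9 ± 19.8 to 423 ± 75.1 CPM (1.94 ± 0.46 and 2.75 ± 0.48; adjusted p = 0.00710 and 0.000534). The Il6st call in tdT- dCAMs was lost with only those libraries fitted (adjusted p = 0.0804). Il2rg, the common gamma chain with which JAK3 pairs, was called in tdT+ dCAMs (1.19 ± 0.22, adjusted p = 0.000879) and stayed under the fold threshold in tdT- dCAMs (0.82 ± 0.21, adjusted p = 0.0136).

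Among 12 tested ligands, 3 were called higher and 1 lower in tdT- dCAMs, and 2 higher and 1 lower in tdT+ dCAMs. Of all genes tested 7.2% and 3.37% were called higher in these populations. Osm, a gp130 cytokine, rose from 100.5 ± 59.5 to 389 ± 51.3 CPM in tdT- dCAMs (1.95 ± 0.44; edgeR, adjusted p = 0.00460), and was 178 ± 93.4 and 429 ± 44.2 CPM in tdT+ dCAMs (1.27 ± 0.43, adjusted p = 0.0923). There Osm passed with the replicate block (limma-voom, 1.40, adjusted p = 0.00307), with DESeq2 (0.0449), and with quality weights (0.000509). It also passed with only those libraries fitted (0.0134), without mouse 177 or 179 (0.0407 and 0.0316) and with the tdT- libraries of mice 174 and 179 left out (0.00549). Il15, a common gamma chain cytokine, fell from 45.7 ± 26.7 to 7.65 ± 2.7 CPM and from 43.6 ± 4.74 to 6.53 ± 5.23 CPM (-2.58 ± 0.59 and -2.74 ± 0.60; adjusted p = 0.00547 and 0.00515). The Il15 call in tdT- dCAMs was lost with only those libraries fitted (adjusted p = 0.0608). Csf3, which encodes G-CSF and is named after its values were seen, averaged 0.0491 CPM in CTL and 228 CPM in LPS libraries of tdT- dCAMs, and 0.021 and 342 CPM in those of tdT+ dCAMs (adjusted p = 1.96e-09 and 9.27e-10). Il6 itself was 32.6 and 177 CPM in tdT- CTL and LPS dCAMs and 14.9 and 228 CPM in tdT+ dCAMs, also named after its values were seen, and was not called (edgeR, adjusted p = 0.170 and 0.0720). Its LPS and CTL libraries did not overlap in either population. Il6 passed in tdT- dCAMs with the replicate block (limma-voom, 5.46, adjusted p = 0.0223). In tdT+ dCAMs it passed with DESeq2 (0.0122), with quality weights (0.0178), with only those libraries fitted (0.00311), without mouse 174 (0.0240) and with the tdT- libraries of mice 174 and 179 left out (0.00144).

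The kinases Jak1 and Tyk2, the factors Stat2, Stat5b and Irf9, and the kinases Pim2 and Pim3 were not called with LPS in either population by edgeR. Among them Stat2 had the largest log2 fold changes of the factors, 1.45 ± 0.72 and 1.34 ± 0.72 (adjusted p = 0.181 and 0.326). At an unadjusted p under 0.05 there were 0 of these kinases and 0 of these factors in either population. DESeq2 called 0 of the JAK kinases and 0 of the factors in either population and 1 PIM kinase in tdT- dCAMs. Voom with a mouse correlation called 1 JAK kinase, 1 factor and 1 PIM kinase in tdT- dCAMs, and voom with quality weights called 1 PIM kinase in tdT- and 1 factor in tdT+ dCAMs.

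Of 5 other SOCS genes, Socs5 was called higher in tdT- dCAMs (3.19, edgeR, adjusted p = 0.0352) and Socs2 in tdT+ dCAMs (4.96, adjusted p = 0.00937). The shares called higher over all genes tested were 7.2% and 3.37%, and 4.28% were called between the populations of CTL mice. The Socs5 call was lost without mouse 174, 177, 54, 56, 59 or 60 (adjusted p = 0.0550 to 0.0879). It was also lost without the filter on low counts (0.0578), with quality weights (0.0583), with only those libraries fitted (0.192) and with the tdT- libraries of mice 174 and 179 left out (0.0544). Their levels, named after they were seen, were opposite in CTL mice: Socs2, an inhibitor of growth hormone signaling, averaged 19.9 CPM without and 0.545 CPM with the tdT label (-5.17 ± 1.17; edgeR, adjusted p = 0.0115), and Socs5 averaged 0.676 CPM without and 21.5 CPM with it (4.96 ± 1.06, adjusted p = 0.00745). Both calls were lost with only those libraries fitted (adjusted p = 0.309 and 0.292), and that of Socs2 also with mouse as a fixed replicate block (0.0625). After LPS they were 34.7 and 17.2 CPM (Socs2) and 6.30 and 6.48 CPM (Socs5). In tdT+ dCAMs Socs5 was thus lower after LPS, without overlap of the libraries (-1.72 ± 0.91; edgeR, adjusted p = 0.316). That fall passed with only those libraries fitted (edgeR, adjusted p = 0.0151) and with quality weights (limma-voom, 0.00787). The difference of the LPS effects was not called by edgeR for Socs2 or Socs5 (4.15 and -4.91, adjusted p = 0.193 and 0.0794). Both passed for it with the replicate block by voom (5.30 and -5.73, adjusted p = 0.0184 and 0.00523) and with DESeq2 (0.0108 and 1.65e-05), and with quality weights Socs5 did (0.0494). Ptpn1, the phosphatase PTP1B that removes phosphate from JAK2 and TYK2, rose from 200 ± 39.4 to 691.5 ± 88.1 CPM and from 252 ± 79.9 to 639.5 ± 41.2 CPM (1.79 ± 0.20 and 1.34 ± 0.20; edgeR, adjusted p = 3.14e-06 and 9.34e-05), and Usp18, which restrains interferon receptor signaling, was called in tdT+ dCAMs (2.06 ± 0.47, adjusted p = 0.00802) and not in tdT- dCAMs (0.83 ± 0.46, adjusted p = 0.225), where it passed with the replicate block (limma-voom, 1.36, adjusted p = 0.0488).

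Genes known as STAT3 targets gave 3 of 8 called higher in tdT- and 4 of 8 in tdT+ dCAMs, with 0 lower by edgeR. Of all genes tested 7.2% and 3.37% were called higher. DESeq2 called 5 of the 8 in each population, voom with quality weights 2 and 4, and voom with a mouse correlation 4 and 3. Nfil3, a transcription factor, rose from 80.2 ± 41.3 to 362 ± 10 CPM and from 41.4 ± 27.6 to 369 ± 18.2 CPM (2.17 ± 0.39 and 3.16 ± 0.41; edgeR, adjusted p = 0.000633 and 1.76e-05). Il1rn, the IL-1 receptor antagonist, rose from 31.7 ± 52.9 to 3528 ± 1115 CPM and from 36.3 ± 26.4 to 4456 ± 1937 CPM (6.80 ± 0.96 and 6.94 ± 0.96; adjusted p = 5.16e-05 and 4.65e-05), calls that both voom fits did not make (adjusted p = 0.189 to 0.980). Sbno2, a co-regulator induced by IL-10, rose by 1.20 ± 0.34 and 2.26 ± 0.36 (adjusted p = 0.0249 and 0.000182), and its call in tdT- dCAMs was lost when mouse 177, 179, 56, 59 or 61 was left out (adjusted p = 0.0529 to 0.0650). That call was also lost with only those libraries fitted (edgeR, adjusted p = 0.073) and with the tdT- libraries of mice 174 and 179 left out (0.0606).

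Genes known as STAT6 targets went both ways, with 1 of 7 called higher and 2 lower in each population. Of all genes tested 11.5% in tdT- and 5.89% in tdT+ dCAMs were called. The lectins Clec10a and Mgl2 fell, Clec10a from 390 ± 153 to 33.1 ± 7.04 CPM and from 403 ± 72.6 to 56.3 ± 25.1 CPM (-3.56 ± 0.33 and -2.84 ± 0.32; edgeR, adjusted p = 2.18e-07 and 2.78e-06), and Mgl2 from 1683 ± 465 to 84.9 ± 28.5 CPM and from 1677 ± 511 to 127 ± 68.8 CPM (-4.31 ± 0.40 and -3.72 ± 0.39; adjusted p = 2.21e-07 and 1.07e-06). The gene that rose was Arg1 (arginase), named after its values were seen, with means of 0 (CTL) and 191 CPM (LPS) in tdT- dCAMs, and of 0.295 and 132 CPM in tdT+ dCAMs.

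**Figure D4:**
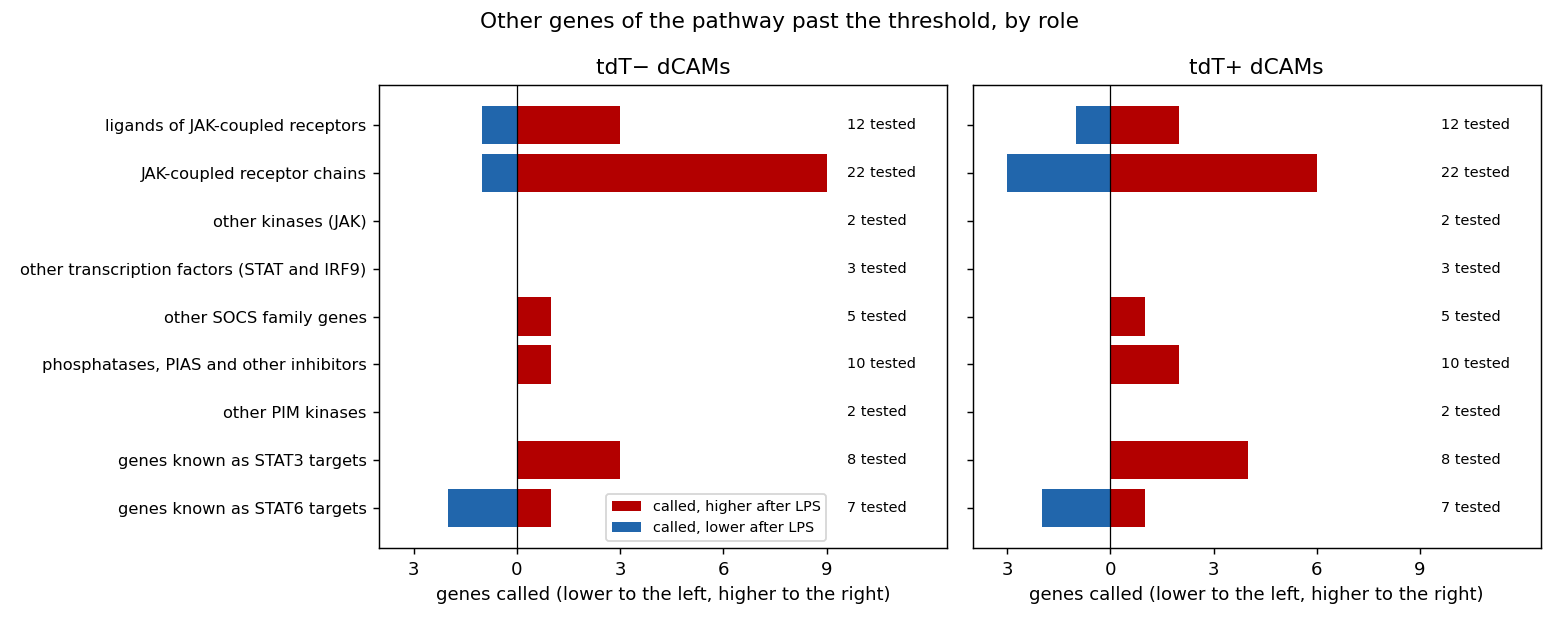
Number of other pathway genes past the threshold with LPS (x axis, higher to the right and lower to the left) by role (y axis) in tdT- (left) and tdT+ dCAMs (right), with the number tested beside each bar. Receptor chains give the longest bars, 9 higher of 22 in tdT- and 6 higher of 22 in tdT+ dCAMs, and the kinase and transcription factor roles have none.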

How the data were processed

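RNA of sorted dCAMs was sequenced in 20 libraries of 10 mice (5 per group), made with a low-input PCR kit without molecular identifiers, so that depth and floors cover counting error only. The authors aligned reads with STAR 2.7.11a, counted them with featureCounts 2.0.6 per the labels and deposited raw counts per gene; the genome build is not settled by the sources used here. Groups came from the labels. Genes with under 10 counts in total were removed (16632 tested, 16611 removed), and counts were scaled by TMM and fitted with edgeR 4.0.16 (R 4.3.3) with 1 mean per group, no covariate and 5 contrasts, with adjustment over all genes tested. The fit was also run on simulated counts with known changes. Log2 CPM used a prior count of 2. Gene positions and exon lengths are from GENCODE M21 (GRCm38), where overlaps with other genes were read, and upstream sequences are from RefSeq (GRCm38.p6; 10 of 10 genes matched, the first listed start used). Library totals were 6017650 to 18925908, and the floor of 3 counts lies at 0.170 to 0.487 CPM.

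Members and lists were chosen with earlier results of these data known. Some genes of the pathway list are not reported here. All 10 genes are named, and of the pathway list up to 3 per role, called in either LPS contrast with mean log2 CPM of 4 or more and LPS libraries apart from CTL libraries. Libraries are paired by mouse, as both populations came from the same dura. Deviations of paired libraries from their group means correlated across 5823 genes at -0.0046 to 0.0461 in CTL and 0.228 to 0.449 in LPS mice. Alternatives were DESeq2 1.42.0, other filters, the compared libraries alone, limma 3.58.1 voom with quality weights, mouse as a block (estimated correlation 0.0413, or a fixed term), the title letter as a covariate, and leaving out single mice.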

Additional observations from a re-analysis of the deposited data

Results flagged for a closer look

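In 5 of the 40 combinations of a gene and a group, the highest of 5 libraries lay far from the rest by Dixon's criterion, which chance alone meets in about 5% of groups. Socs3 was 495.8 CPM in the tdT+ CTL library of mouse 178, against 171.5 to 257.6 CPM in the other tdT+ CTL libraries. Cish was 19.0 CPM in the tdT- CTL library of mouse 177, with at most 5.49 CPM in the others of its group. The tdT- CTL library of mouse 175 was apart for Stat4 (12.2 CPM, the next 2.43) and for Stat5a (35.7 CPM, the next 7.24), and it was also the tdT- CTL library with the fewest well expressed genes at the floor (1.72%). Stat4 was 18.9 CPM in the tdT+ LPS library of mouse 54, the next being 7.84 CPM.

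The LPS effect on Jak3 differed between the populations by -4.78 ± 1.14 on the log2 scale (tdT+ minus tdT-; edgeR, adjusted p = 0.0379). The call was lost with mouse as a fixed replicate block (adjusted p = 0.145), without mouse 178 (0.0536) and without any one of the 5 LPS mice (0.124 to 0.150).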

How the results depend on the processing

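Values below are log2 fold changes or numbers of genes called, and the cause of each change was not tested. Among the 10 genes, 3 were called for LPS in tdT- dCAMs, 6 with the replicate block by voom and 3 or 4 with single mice left out. In tdT+ dCAMs 2 were called, and 1 to 2 with single mice left out, Stat3 being lost without mouse 54 or 61. Between the populations of CTL mice 1 was called, 2 with DESeq2 (Jak3 and Pim1) and 0 when only those libraries were fitted. For the difference of the LPS effects 1 was called, 0 with mouse as a fixed replicate block, and 0 to 1 with single mice left out. Between the populations of LPS mice the count was 0 under every alternative run. Of the other pathway genes, 22 were called in tdT- dCAMs and 12 with only those libraries fitted, and 22 in tdT+ dCAMs, 34 with only those libraries fitted and 36 with voom and sample quality weights. With the tdT- libraries of mice 174 and 179 left out, an alternative added after seeing the data, 4 of the 10 genes were called for LPS in tdT- dCAMs (Jak2 in addition, 2.44, adjusted p = 0.00287), and the other counts of the 10 genes did not move. The replicate block changed no other call on the 10 genes than those given here and in the text above. Directions changed between the populations of CTL mice for Socs1 from -0.31 to 1.26 (voom block), 0.30 (mouse as a fixed block), 0.49 (quality weights), -0.69 to 0.23 (single mice left out), for Cish from -1.66 to -2.77 to 0.46 (single mice left out) and for Jak2 from -0.13 to 2.01 (voom block), 1.55 (mouse as a fixed block), 1.66 (quality weights), 0.91 (those libraries left out), -0.57 to 1.43 (single mice left out). Directions changed for the difference of the LPS effects for Socs1 from 0.05 to -1.44 (voom block), -0.54 (mouse as a fixed block), -0.66 (quality weights), -0.46 to 0.43 (single mice left out), for Cish from 0.14 to -1.48 (voom block), -1.12 (mouse as a fixed block), -0.54 (quality weights), -0.35 (title letter), -1.98 to 1.28 (single mice left out), for Stat3 from -0.18 to -0.63 to 0.02 (single mice left out) and for Jak2 from -0.38 to -1.95 to 0.05 (single mice left out). Directions changed for LPS in tdT- dCAMs for Cish from 0.53 to -0.22 (those libraries left out) and for Stat6 from -0.08 to -0.25 to 0.07 (single mice left out). Directions changed for LPS in tdT+ dCAMs for Stat4 from 0.29 to -0.13 to 0.58 (single mice left out), for Stat5a from 0.26 to -0.01 to 0.61 (single mice left out) and for Pim1 from 0.15 to -0.03 to 0.30 (single mice left out). Directions changed between the populations of LPS mice for Stat4 from -0.14 to -0.53 to 0.32 (single mice left out). None of the values whose direction changed passed the threshold in edgeR. Over the named genes, 1272 recomputed values kept their direction and side of the threshold, 16 newly passed it, 24 no longer passed it and 40 changed direction. Cish and Stat4 had at most 156 and 250 counts in any library, and their LPS effects had SEs from 1.29 to 1.67 on the log2 scale.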
